A study of Danio rerio with 10 samples.

Results

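The zp3 genes encode egg coat proteins of the zona pellucida (ZP) family. Every probe set of the array whose annotation named exactly 1 gene with a symbol starting with zp3 was taken, which gave 10 probe sets for 9 genes, of 15502 probe sets for 8793 named genes in all. The genes were zp3.1, zp3a.1, zp3a.2, zp3b, zp3c, zp3d.1, zp3d.2, zp3f.1 and zp3f.2, and zp3.1 had a pair of probe sets. A RefSeq gene table held 12 protein-coding zp3 genes, of which 9 had a probe set of their own here. All 10 probe sets stayed above background in all 4 groups, so none was lost to a filter on low values. Background was the highest mean among 17 tag control probe sets, which have no zebrafish target, and lay at 5.10 to 6.33 on the log2 scale depending on the group.

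As background, ZP proteins share a ZP domain through which they assemble into the fibres of the extracellular coat around the vertebrate egg. In the mouse, Zp3 is one of the main proteins of that coat, which the growing oocyte builds and which the sperm must cross. In fish the coat, called the vitelline envelope and later the chorion, surrounds the embryo until hatching. In zebrafish, zp3 transcripts are made in the oocyte. Transcripts that the egg carries into the embryo are called maternal, and many are cleared around the mid-blastula transition (MBT), when transcription from the embryonic genome sets in broadly.

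Total RNA of whole zebrafish (Danio rerio) embryos was hybridised to 10 Affymetrix Zebrafish Genome Arrays in 2 experiments, and each probe set has a robust multi-array average (RMA) value on a log2 scale. In experiment 1, 3 arrays labelled morphant held embryos given a splice-blocking morpholino against sox19b, an early embryonic transcription factor gene of the SoxB1 group, and 3 control arrays held embryos of the same age, 4.3 h post fertilization (hpf). The labels call the controls wild type, whereas the series text says that they were injected with placebo. In experiment 2, 2 arrays of wild type embryos at 4 hpf, after the MBT, were set against 2 arrays of wild type embryos at 2.5 hpf, before it. The labels give no strain, no number of embryos per array and no parents. The p-values therefore measure only spread among arrays, which may be technical. In whole embryos, fewer cells of a type and less RNA per cell cannot be told apart. A morpholino is an antisense oligonucleotide, and this splice blocker targets a junction of intron and exon in sox19b. Its 25 bases are shown because they are the agent that separates the groups of experiment 1.
sox19b morpholino: acatttgactgtggagaggaaaaaa

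The sox19b transcript itself was higher, not lower, in the arrays labelled morphant. The values were 9.13, 8.80 and 9.18 in arrays labelled morphant, against 8.48, 7.63 and 8.09 in control arrays, a difference of 0.97 (adjusted p = 0.00214, limma), and a second sox19b probe set differed by 1.33. The position of these probes relative to the blocked junction was not analysed here, so the transcript level is no check of the labels. Arrays of 1 group correlated at 0.990 to 0.998 over all probe sets, with control replicate 2 the lowest (0.990 and 0.992 with the other controls). Array medians were 5.402 to 5.440 in experiment 1 and 6.16 to 6.26 in experiment 2. From this gap the experiments were taken to have been normalized apart. The group differences below were therefore taken within each experiment. The words rose and fell are kept for probe sets called at an adjusted p below 0.05 in limma, with the adjustment over all 15502 probe sets. Limma draws the variance of each probe set towards that of all probe sets. Its p-values and intervals therefore also carry that shared spread.

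At 4.3 hpf, 9 of the 10 zp3 probe sets were higher in arrays labelled morphant than in control arrays, and none was called lower. The rises ran from 1.29-fold for zp3.1 to 2.73-fold for zp3d.2, and the only probe set not called was that of zp3a.2. The median log2 difference of the 10 probe sets was 0.63, against -0.04 over all probe sets tested. Experiment 1 had many calls: 42.5% of all probe sets were called, 21.3% higher and 21.2% lower. With only the 8792 probe sets above background tested, 33.3% were called higher and 29.9% lower. In the same 9 zp3 probe sets the 3 arrays labelled morphant lay above all 3 control arrays, which was so for 25.1% of all probe sets.

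The largest rise was that of zp3d.2. Its log2 values were 6.66, 7.04 and 6.93 in arrays labelled morphant, against 5.52, 5.32 and 5.43 in control arrays. The groups were separated by more than the whole spread within either, and the control arrays lay close to their background of 5.13. The means were 6.87 ± 0.19 in arrays labelled morphant and 5.42 ± 0.10 in control arrays (SD, n = 3 each), a difference of 1.45 (SE 0.12, 95% confidence interval 1.17 to 1.73, adjusted p = 6.17e-06, limma). It was called under all 13 alternatives tried, with adjusted p from 4.06e-07 to 1.70e-04.

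A rise of similar size was seen for zp3f.1. It had 10.62, 10.27 and 10.42 in arrays labelled morphant, against 9.34, 8.66 and 9.34 in control arrays. The groups did not overlap, and control replicate 2 stood below the other control arrays. Replicate 2 was also the lowest of the arrays labelled morphant. The means were 10.44 ± 0.17 in arrays labelled morphant and 9.11 ± 0.40 in control arrays (SD, n = 3 each), a 2.50-fold rise (log2 difference 1.32, SE 0.18, 95% confidence interval 0.91 to 1.73, adjusted p = 0.000177, limma). It too was called under all 13 alternatives.

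**Figure D1:**
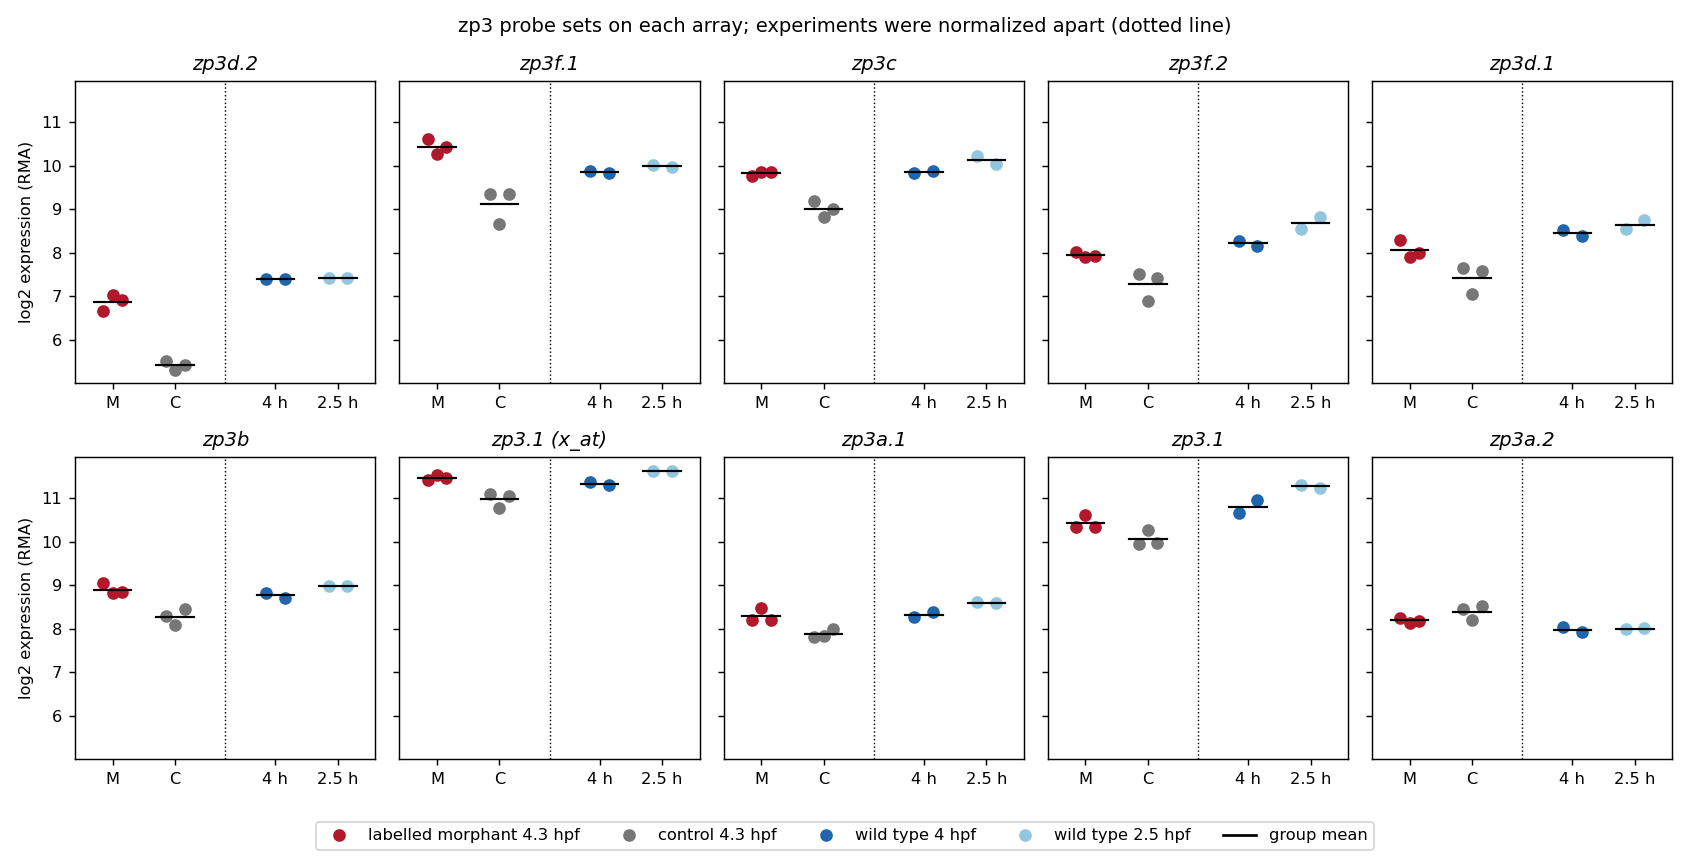
Log2 expression of each of the 10 zp3 probe sets on each of the 10 arrays, with a bar at the group mean; M stands for arrays labelled morphant and C for control arrays, both at 4.3 hpf, and the dotted line separates the experiments, whose levels are not comparable across it. In every panel but that of zp3a.2 the 3 arrays labelled morphant lie above the 3 control arrays, furthest apart for zp3d.2 (6.87 against 5.42 on average), while the 4 hpf arrays of zp3d.2 lie level with its 2.5 hpf arrays (7.40 and 7.43 on average).

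Intermediate rises were measured for zp3c, zp3f.2, zp3d.1 and zp3b. For zp3c the values were 9.76, 9.85 and 9.86 in arrays labelled morphant, against 9.20, 8.82 and 9.01 in control arrays, a 1.76-fold rise (log2 difference 0.82, SE 0.12, adjusted p = 0.000257, limma). The zp3f.2 values were 8.01, 7.90 and 7.92 in arrays labelled morphant and 7.52, 6.90 and 7.43 in control arrays, a 1.58-fold rise (log2 difference 0.66, SE 0.16, adjusted p = 0.00571). Neither gene's groups overlapped, and for both control replicate 2 was again the lowest array. The zp3d.1 probe set read 8.31, 7.89 and 7.995 in arrays labelled morphant, against 7.64, 7.05 and 7.58 in control arrays, a 1.56-fold rise (log2 difference 0.64, SE 0.17, adjusted p = 0.0110). For zp3b the arrays labelled morphant had 9.05, 8.81 and 8.83 and the control arrays 8.29, 8.09 and 8.45, a 1.54-fold rise (log2 difference 0.62, SE 0.13, adjusted p = 0.00209). The 4 intermediate rises thus ran from 0.62 to 0.82 on the log2 scale, and each lay inside the confidence intervals of the others. The zp3d.1 call was lost without morphant replicate 1 (adjusted p = 0.0560).

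The smallest rises were those of zp3.1 and zp3a.1. The second zp3.1 probe set, whose name carries the suffix by which the manufacturer marks possible cross-hybridisation, and whose gene identifier matched no gene of the RefSeq table, had 11.40, 11.52 and 11.45 in arrays labelled morphant and 11.10, 10.78 and 11.04 in control arrays (log2 difference 0.48, SE 0.12, adjusted p = 0.00612, limma). The first zp3.1 probe set had 10.33, 10.62 and 10.34 in arrays labelled morphant, against 9.95, 10.27 and 9.96 in control arrays (log2 difference 0.37, SE 0.13, adjusted p = 0.0443). Here replicate 2 was the highest array of either group, so that the lowest array labelled morphant and the highest control array differed by little. The zp3a.1 values were 8.20, 8.47 and 8.21 in arrays labelled morphant, against 7.82, 7.84 and 7.995 in control arrays (log2 difference 0.41, SE 0.12, adjusted p = 0.0162). In fits without pairing by replicate number, the calls of the first zp3.1 probe set and of zp3a.1 depended on single arrays. That of the first zp3.1 probe set was lost when any array but control replicate 2 was left out (adjusted p 0.0628, 0.176 and 0.0644 without morphant replicates 1, 2 and 3, and 0.128 and 0.142 without control replicates 1 and 3), and when arrays were centred on their medians (0.0523). The zp3a.1 call was lost without morphant replicate 2 (0.0775) or control replicate 1 (0.0510). With all arrays kept and same-numbered arrays paired by a replicate block, both probe sets were called (adjusted p = 0.0142 for zp3.1 and 0.0178 for zp3a.1, limma). Scaling on spiked-in Bacillus control probe sets, which moved the median of all probe sets to 0.21 and the split to 36.3% higher and 12.8% lower, moved the differences to 0.61 for the first zp3.1 probe set and 0.65 for zp3a.1.

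The exception was zp3a.2. It had 8.26, 8.14 and 8.18 in arrays labelled morphant, against 8.46, 8.21 and 8.52 in control arrays. The groups overlapped, and the difference of -0.20 (SE 0.12, 95% confidence interval -0.46 to 0.05, adjusted p = 0.20, limma) was not called under any of the 13 alternatives. Its sign turned to 0.04 under Bacillus scaling.

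**Figure D2:**
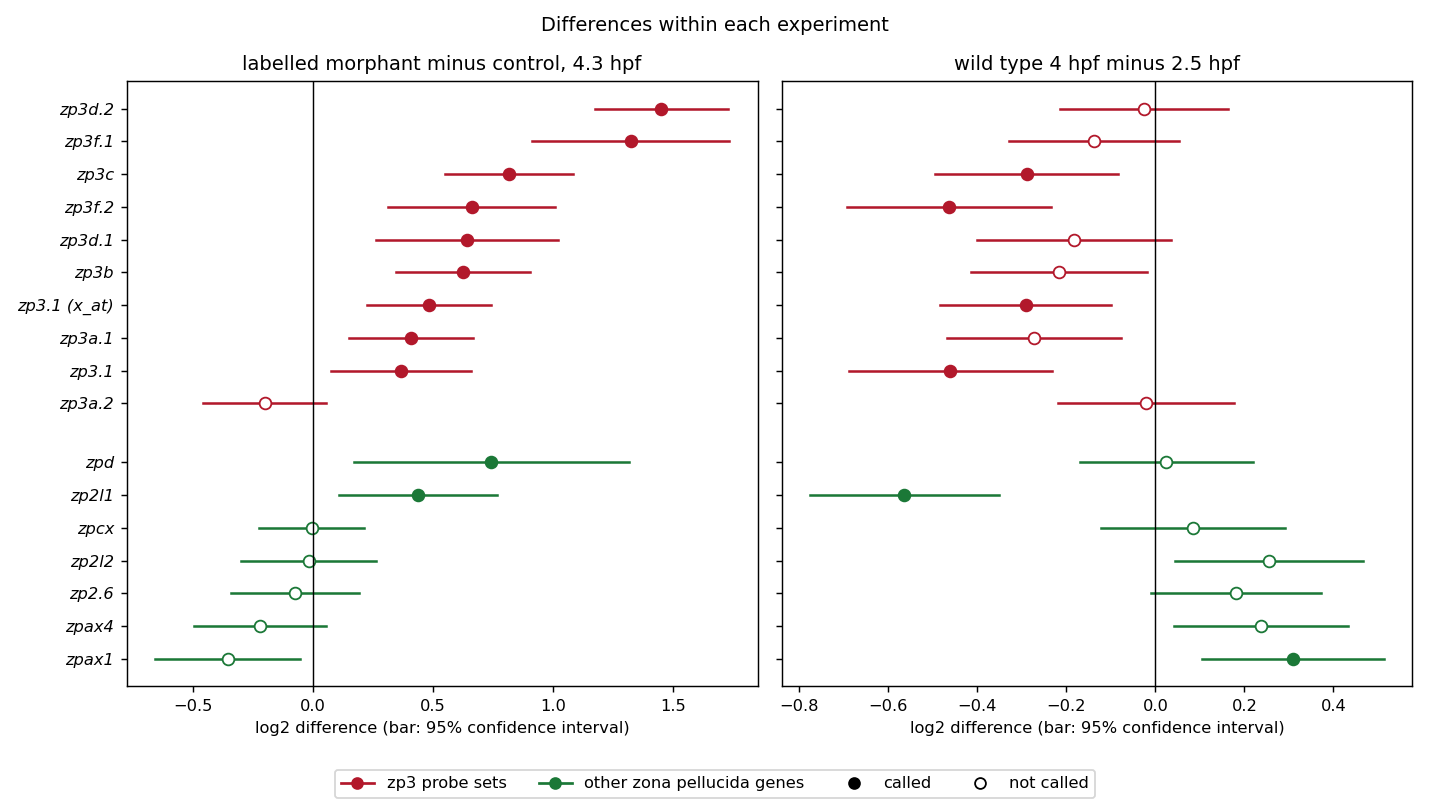
Log2 differences with 95% confidence intervals for the 10 zp3 probe sets (red) and 7 other zona pellucida genes (green); arrays labelled morphant minus control arrays at 4.3 hpf on the left, wild type at 4 hpf minus wild type at 2.5 hpf on the right. Filled points passed an adjusted p of 0.05. On the left 9 zp3 points lie right of 0, up to 1.45, while zp3a.2 lies at -0.20; on the right all 10 lie at or left of 0, between -0.46 and -0.02.

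Several of the genes stand next to each other on the chromosome, and their differences were compared pair by pair. In the RefSeq table no protein-coding gene lies between zp3a.1 and zp3a.2, between zp3d.2 and zp3d.1, or between zp3f.1 and zp3f.2. The values of a pair come from the same arrays, so the difference between neighbours was taken within each array and then compared between groups. The zp3a.1 value minus that of zp3a.2 averaged 0.10 in arrays labelled morphant and -0.51 in control arrays, a change larger by 0.61 for zp3a.1 (SE 0.14). The zp3d.2 value minus that of zp3d.1 averaged -1.19 in arrays labelled morphant and -2.00 in control arrays, a change larger by 0.81 (SE 0.27). The zp3f.1 value minus that of zp3f.2 averaged 2.49 in arrays labelled morphant and 1.83 in control arrays, a change larger by 0.66 (SE 0.08). In each of the 3 pairs the within-array differences of the groups did not overlap. The exact two-sided permutation p was 0.1 in each (0.1 also after adjustment over the 3 pairs). That is the smallest this permutation can give with 3 arrays against 3, so it cannot reach 0.05 and cannot decide whether neighbours differ. No other test of these differences was run. This permutation does not use the pairing of arrays by replicate number. Between 4 and 2.5 hpf the same 3 quantities were -0.25 for zp3a, 0.16 for zp3d, where the groups overlapped, and 0.33 for zp3f, with exact permutation p of 0.333, 0.667 and 0.333 (0.333 is the smallest that 2 arrays against 2 can give). A difference between probe sets also carries how each probe set responds to its transcript, and whether neighbouring copies share probe matches was not tested.

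Between 2.5 and 4 hpf in wild type embryos the zp3 transcripts changed little. Of the 10 probe sets 4 fell, none rose and 6 were not called. In that comparison 19.5% of all probe sets were called, 9.66% higher and 9.88% lower. With only the 7863 probe sets above background tested, 15.2% were called higher and 21.9% lower, and 5 zp3 probe sets were called lower. The median zp3 difference was -0.24, against 0.05 over all probe sets. In 9 of the 10, all but zp3a.2, both 4 hpf arrays lay below both 2.5 hpf arrays, which was so for 24.6% of all probe sets.

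The largest falls were those of zp3f.2 and the first zp3.1 probe set. The zp3f.2 values were 8.28 and 8.15 at 4 hpf, against 8.55 and 8.81 at 2.5 hpf (log2 difference -0.46, SE 0.10, adjusted p = 0.00976, limma). The first zp3.1 probe set had 10.66 and 10.94 at 4 hpf, against 11.29 and 11.24 at 2.5 hpf (log2 difference -0.46, SE 0.10, adjusted p = 0.0098). Both are 1.38-fold falls with no overlap between the groups. The second zp3.1 probe set had 11.36 and 11.29 at 4 hpf, against 11.62 and 11.61 at 2.5 hpf (log2 difference -0.29, SE 0.09, adjusted p = 0.0374). For zp3c the values were 9.82 and 9.87 at 4 hpf, against 10.22 and 10.05 at 2.5 hpf (log2 difference -0.29, SE 0.09, adjusted p = 0.0499). These are 1.22-fold falls that stood close to the threshold. With 1 array left out the number of falls called was 1 to 2. The second zp3.1 call (adjusted p 0.0603 to 0.174) and the zp3c call (0.0521 to 0.219) were lost whichever of the 4 arrays was left out, the zp3f.2 call without 2.5 hpf replicate 2 (0.0921), and the first zp3.1 call without 4 hpf replicate 1 (0.0678). In the joint fit of all arrays none of the 4 falls was called (0.115 for zp3f.2, 0.0633 and 0.200 for the first and second zp3.1 probe sets, 0.208 for zp3c), and joint quantile normalization alone lost those of the second zp3.1 probe set (0.0506) and zp3c (0.0808).

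The remaining zp3 differences with time were small. The values of zp3d.2 were 7.40 and 7.40 at 4 hpf, against 7.43 and 7.42 at 2.5 hpf, a difference of -0.03 (95% confidence interval -0.21 to 0.16, adjusted p = 0.86, limma), and its sign turned to 0.03 under joint quantile normalization. The SDs of zp3d.2 were 0.0048 at 2.5 hpf and 0.0026 at 4 hpf, while the SE from limma was 0.0867, so its interval mostly carries the shared spread. For zp3f.1 the values were 9.87 and 9.84 at 4 hpf, against 10.02 and 9.96 at 2.5 hpf, a difference of -0.14 (95% confidence interval -0.33 to 0.05, adjusted p = 0.288, limma). The probe sets with the largest rises in arrays labelled morphant thus had, with time, intervals that leave out a fall of more than 0.33 on the log2 scale. The zp3a.1 probe set had 8.27 and 8.38 at 4 hpf, against 8.61 and 8.59 at 2.5 hpf (-0.27, adjusted p = 0.0528), zp3b had 8.83 and 8.70 at 4 hpf, against 8.97 and 8.99 at 2.5 hpf (-0.22, adjusted p = 0.114), and zp3d.1 had 8.53 and 8.39 at 4 hpf, against 8.54 and 8.75 at 2.5 hpf (-0.18, adjusted p = 0.219). In these 3 genes the groups did not overlap but the test was not passed. With arrays centred on their medians, zp3a.1 (0.0141) and zp3b (0.0354) also passed, while the split over all probe sets moved to 4.86% higher and 14.8% lower. Only zp3a.2 overlapped, with 8.05 and 7.92 at 4 hpf, against 7.99 and 8.02 at 2.5 hpf (-0.02, 95% confidence interval -0.22 to 0.18).

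The experiments share no array. In arrays labelled morphant the 4 probe sets that fell with time, namely those of zp3f.2, zp3c and zp3.1, had risen by 0.66, 0.82, 0.37 and 0.48. A rise in arrays labelled morphant together with a fall at 4 hpf was called for 5.9% of all probe sets.

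**Figure D3:**
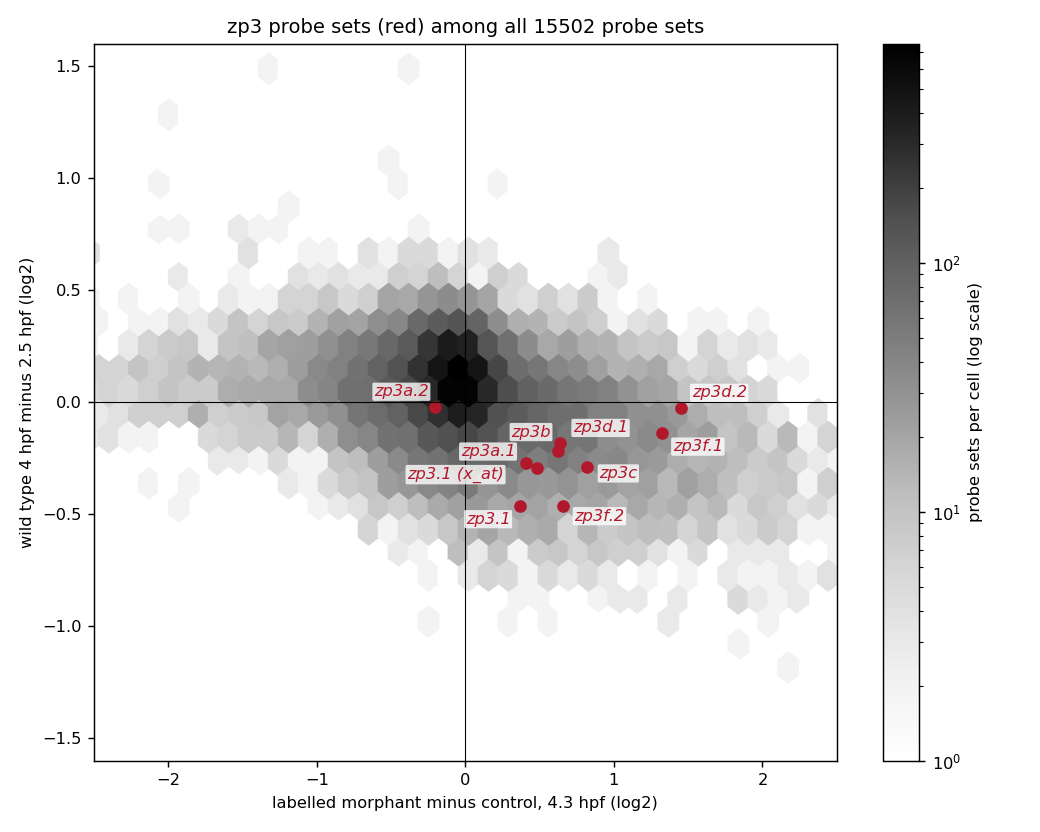
Each zp3 probe set (red) placed by its log2 difference between arrays labelled morphant and control arrays at 4.3 hpf (horizontal axis) and between 4 and 2.5 hpf in wild type embryos (vertical axis); grey cells count all 15502 probe sets on a log scale, and 322 lie outside the axes. In all, 9 red points lie in the lower right field, where zp3d.2 (1.45 and -0.03) is furthest right and zp3f.2 (0.66 and -0.46) lowest, and zp3a.2 (-0.20 and -0.02) lies left of 0.

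To place all 4 groups on 1 scale, the 10 arrays were quantile-normalized together. The experiment, and with it array processing, cannot be told apart from the difference between groups of different experiments, so these levels are a description with no test. On this scale the control arrays at 4.3 hpf had the lowest mean of the 4 groups for 9 of the 10 probe sets, though for zp3a.1 they lay within the spread of the 4 hpf arrays (8.09 ± 0.10 in control arrays and 8.10 ± 0.08 at 4 hpf). For zp3d.2 the means were 7.06 at 2.5 hpf, 7.09 at 4 hpf, 7.05 ± 0.19 in arrays labelled morphant and 5.74 ± 0.09 in control arrays. The first 3 groups lay within the spread of the arrays labelled morphant, and the control arrays stood apart. For zp3f.1 they were 9.94 at 2.5 hpf, 9.82 at 4 hpf, 10.53 ± 0.19 in arrays labelled morphant and 9.17 ± 0.37 in control arrays, so the arrays labelled morphant stood above both wild type stages. For zp3a.2 they were 7.68 at 2.5 hpf, 7.74 at 4 hpf, 8.31 in arrays labelled morphant and 8.54 in control arrays, the only case in which the control arrays were highest. Control arrays minus 4 hpf arrays had a median over the 10 probe sets of -0.52 (range -1.35 to 0.81), against -0.09 over all probe sets. Arrays labelled morphant minus 4 hpf arrays had a median of 0.19 (range -0.20 to 0.72), against -0.04 over all probe sets.

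**Figure D4:**
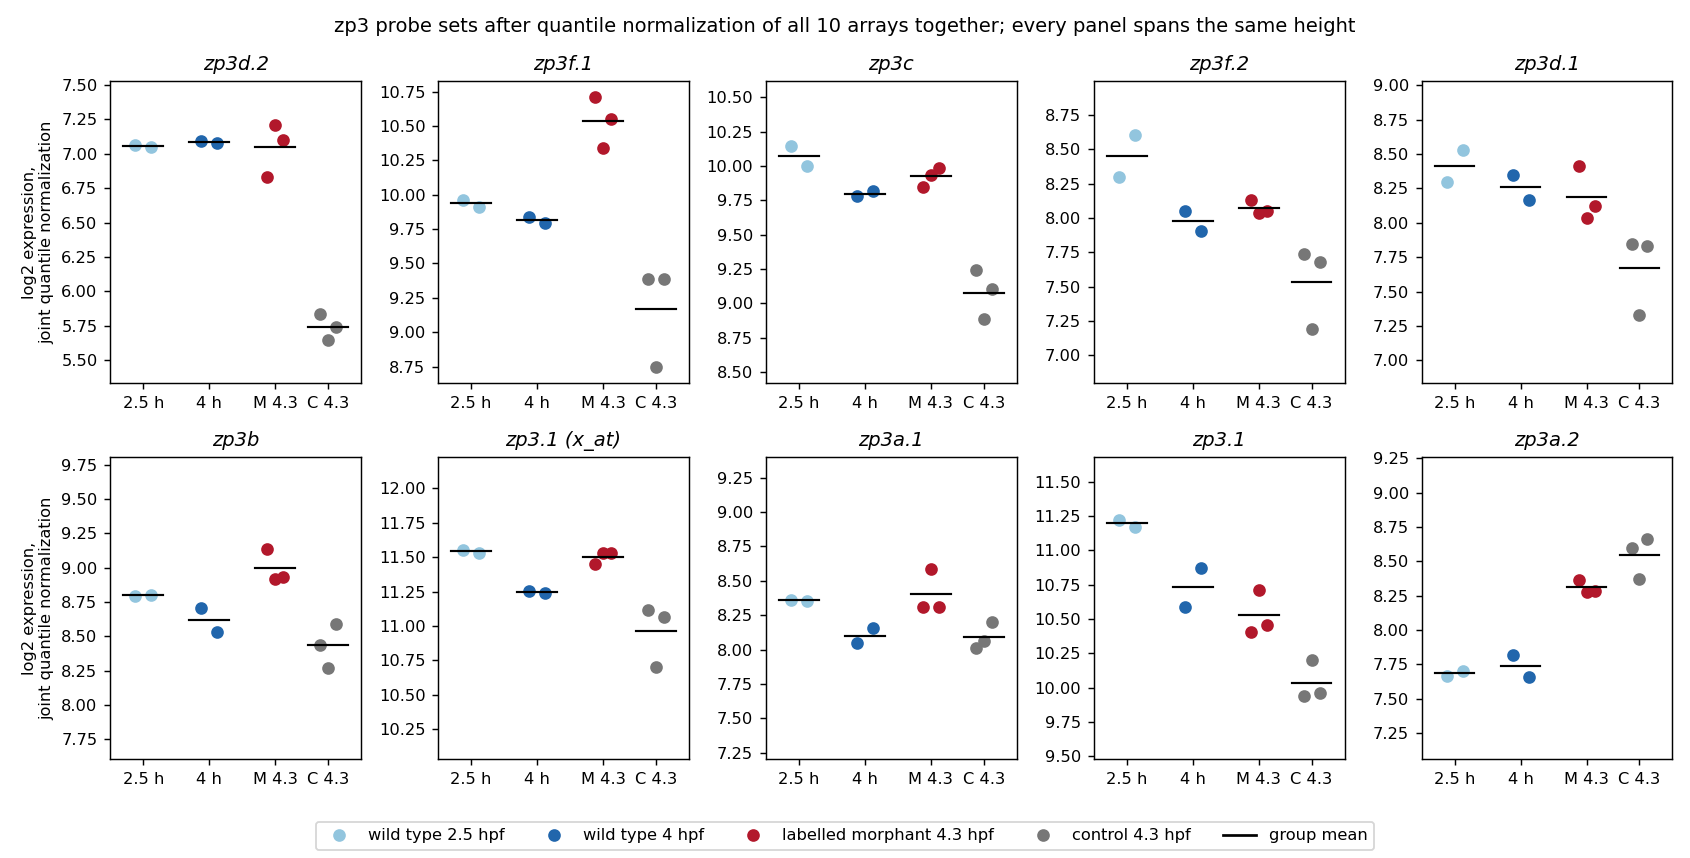
Log2 expression of the zp3 probe sets after quantile normalization of all 10 arrays together, by group, with a bar at the group mean; M and C stand for arrays labelled morphant and control arrays at 4.3 hpf, every panel spans the same height but has its own origin, and the 2.5 and 4 hpf arrays come from another experiment. Control arrays have the lowest mean in 9 of 10 panels, and in the panel of zp3d.2 the means of the other groups lie at 7.05 to 7.09, against 5.74 in control arrays.

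Of the other egg coat genes, 7 had a probe set of their own. In arrays labelled morphant 2 of the 7 rose, none fell and 5 were not called. Over all probe sets 21.3% were called higher and 21.2% lower, and 7 genes are too few to read against those shares. Their median difference was -0.02, against -0.04 over all probe sets. Further zp2 signal lay in 4 probe sets shared by several genes, given at the end. That of zp2.3 and zp2.2 rose by 0.88, and that of zp2.1, zp2.6 and zp2.5 fell by 0.53. The others were not called. By name, zp2.6, zp2l1 and zp2l2 belong to the ZP2-like genes, while zpcx, zpax1, zpax4 and zpd carry other ZP names. How closely each is related to the zp3 genes was not tested. The zp2l1 values were 7.12, 6.80 and 7.21 in arrays labelled morphant, against 6.76, 6.35 and 6.72 in control arrays (log2 difference 0.44, adjusted p = 0.0364, limma). The zpd values were 5.79, 4.86 and 5.65 in arrays labelled morphant, against 5.08, 4.24 and 4.75 in control arrays, whose mean did not exceed background. The log2 difference was 0.74 (95% confidence interval 0.17 to 1.31, adjusted p = 0.0393, limma), and the groups overlapped. The mean of arrays labelled morphant stood only 1.23-fold above the background of the control arrays. Both calls were lost without morphant replicate 1 (0.117 for zp2l1 and 0.164 for zpd), without morphant replicate 3 (0.139 and 0.153), without control replicate 2 (0.0958 and 0.0922) and without control replicate 3 (0.0526 and 0.0848). The zp2l1 call was also lost under joint quantile normalization (0.0842) and in the joint fit (0.0512), and the zpd call under trend and robust settings (0.0615). With the replicate block both were called (adjusted p = 0.00638 for zp2l1 and 0.000428 for zpd, limma). The most negative difference was that of zpax1, with 8.01, 8.08 and 8.49 in arrays labelled morphant, against 8.49, 8.57 and 8.59 in control arrays (-0.36, adjusted p = 0.0583). It was called lower with the replicate block (0.0336), under median centring (0.0497), joint quantile normalization (0.0388), trend and robust settings (0.0392), with probe sets above background only (0.0478), in the joint fit (0.0181) and without morphant replicate 3 (0.00778), but not under Bacillus scaling (0.465) or without any other array (0.0750 to 0.212). The remaining genes had differences of -0.22 for zpax4, -0.08 for zp2.6, -0.02 for zp2l2, which was at background in all groups, and -0.01 for zpcx (95% confidence interval -0.23 to 0.21). With time, zp2l1 fell (6.65 and 6.86 at 4 hpf, against 7.32 and 7.32 at 2.5 hpf, adjusted p = 0.0020) and zpax1 rose by 0.31 (adjusted p = 0.0376). The zpax1 rise was lost without 2.5 hpf replicate 2 (0.246), 4 hpf replicate 1 (0.0697) or 4 hpf replicate 2 (0.0977), under median centring (0.102) and in the joint fit (0.0987).

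Many listed oocyte and maternal transcripts also differed between the groups of experiment 1. The list was chosen with earlier results of these data known, so its counts and medians are a description. Of 47 listed genes 38 were measured, of which 23 rose in arrays labelled morphant and 3 fell, beside 21.3% higher and 21.2% lower over all probe sets. Of probe sets above background, 33.3% were called higher and 29.9% lower. Their median difference was 0.79, against -0.04 over all probe sets. The list includes sox19b, the target of the morpholino, which is 1 of the 23 rises and was also called higher with time. The 4 largest of these rises, which were the largest differences of either sign, all exceeded that of zp3d.2, as did further rises of the list. The 3 falls ran from -0.99 to -0.27. The kinase gene mos, which holds the egg in meiotic arrest, averaged 10.79 ± 0.05 in arrays labelled morphant and 6.93 ± 0.34 in control arrays (SD, n = 3 each, adjusted p = 8.09e-08, limma). The differences were 3.08 for btg4, a gene of maternal mRNA decay, 2.70 for slbp2, a histone mRNA binding protein gene, and 2.65 for buc, which organises the Balbiani body of the oocyte. With time 5 of these genes rose and 11 fell, beside 9.66% higher and 9.88% lower over all probe sets, with a median of -0.09, against 0.05 over all. Of probe sets above background, 15.2% were called higher and 21.9% lower with time. Of the 5 genes that rose with time, aspm (0.35) lay below background at both stages. The 5 rises ran from 0.34 to 0.93, the largest being that of sox19b. There mos fell by 1.45 (adjusted p = 3.76e-07) and dazl, a germ cell RNA-binding protein gene, by 1.17 (adjusted p = 4.37e-06), both more than any zp3 probe set. With 1 array left out, 2 to 5 of the oocyte genes were called higher and 7 to 9 lower at 4 hpf, the fewest (2 and 7) without 2.5 hpf replicate 2.

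Genes of fertilization and egg activation were thinly covered. Of 17 listed, 6 were measured, of which 1 rose and 3 fell in arrays labelled morphant, beside 21.3% higher and 21.2% lower over all probe sets, too few genes to read against those shares. In experiment 1 fyna rose (0.52, adjusted p = 0.00242, limma) while ptbp1a (-2.88, adjusted p = 7.55e-08), yes1 (-0.50, adjusted p = 0.00293) and cd81a fell, the last below background in both groups. The yes1 call was lost under Bacillus scaling (0.0513). Fyna and yes1 encode Src-family kinases, and ptbp1a encodes an RNA-binding protein. With time 3 of the 6 rose and 1, src, fell (-0.34, adjusted p = 0.0202), beside 9.66% higher and 9.88% lower over all. With 1 array left out, 1 to 2 were called higher and 0 to 1 lower, and the src fall was lost without 2.5 hpf replicate 2 (0.123) or 4 hpf replicate 2 (0.0840) and in the joint fit (0.282).

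Most measured markers of ovarian follicle cells and maternal liver were at background, but 1 follicle cell gene was not and rose with the zp3 transcripts. Of 7 measured ovarian follicle cell genes, cyp17a1, a steroid-synthesis enzyme gene, lay above background in every group and the other 6 in none; it averaged 7.74 ± 0.21 in arrays labelled morphant and 6.71 ± 0.45 in control arrays (SD, n = 3 each, adjusted p = 0.00203, limma). The other 6 differed by -0.10 to 0.12, none called. The summed linear level of the 7 genes was 251 to 310 in arrays labelled morphant and 140 to 205 in control arrays. This sum reads cyp17a1 together with background signal and is no level of the whole set. The part of follicle cell RNA in the zp3 rises was not tested. None of 4 measured maternal liver genes was above background in any group. Of 9 genes listed for the hatching gland 2 were measured, and both fell in arrays labelled morphant. Beside 21.2% lower over all probe sets, these are too few genes to read against that share. Whether these genes mark that tissue in embryos of this age was not tested. The first was the transcription factor gene klf17 (-2.41, adjusted p = 1.51e-06, limma), which was at least 6.63-fold higher at 4 hpf than at 2.5 hpf. Its values were 6.71, 7.33 and 6.73 in arrays labelled morphant, against 9.17, 9.39 and 9.45 in control arrays, so it differed between the groups of experiment 1 in the direction opposite to the zp3 transcripts. The other, cd63, fell by 0.44 in arrays labelled morphant (adjusted p = 0.00819), a call lost under Bacillus scaling (-0.20, adjusted p = 0.162). With time cd63 was below background in both groups and was not called (-0.23, adjusted p = 0.188). The part of embryo stage in the zp3 rises was not tested.

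By root mean square difference, the transcripts nearest to zp3d.2 and zp3f.1 were no egg coat genes. Likeness was the root mean square difference of log2 values over the 10 arrays, after the mean of each experiment had been removed. It was taken among 7379 probe sets with 1 named gene that were above background in at least 1 group. The zp3 probe sets were left out of these and ranked against them. Nearest to zp3d.2 were vldlr, a lipoprotein receptor gene (0.0641), lysmd2 (0.0666), zfand2a (0.0792), gjc4a.1, a connexin gene (0.0811), and btbd9 (0.0811). Nearest to zp3f.1 were tubgcp2, a gamma-tubulin complex gene (0.0412), thy1 (0.0560), lactb (0.0754), gpsm2 (0.0772) and nde1 (0.0802). Between zp3d.2 and zp3f.1 themselves the measure was 0.2239, so many probe sets lay closer to each than the other zp3 gene did, which had rank 579 from zp3d.2 and 577 from zp3f.1. The measure also counts the size of a difference, not its pattern alone. Over the same values, zp3d.2 correlated with the other zp3 probe sets at -0.665 (zp3a.2) to 0.943 (zp3c). For zp3f.1 these correlations were -0.394 (zp3a.2) to 0.964 (zp3b), and for the nearest genes named above they were 0.990 to 0.997. These values share their arrays and normalization, and the order is a description.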

How the data were processed

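The deposited values are log2 expression per probe set, made by the authors with affy and RMA, per the submitters' processing notes; versions were not stated there. They were used without further normalization. Of 15617 probe sets, 115 AFFX controls were left out; the array annotation gave 1 gene for 10795, several for 135 and none for 4572, and 10711 matched a RefSeq table (GRCz12tu) used for names and neighbours only. Each experiment was fitted alone with limma 3.58.1 in R 4.3.3 (lmFit and eBayes with a term for group alone, two-sided tests, Benjamini-Hochberg), and the fit was tested on simulated data; figures used matplotlib 3.10.9 in Python 3.11.15. Arrays give no counts, so their number limits the precision.

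All zp3 probe sets are named. From each gene list (1 probe set per gene, that with the highest mean) at most 4 members with the largest called differences per experiment may be named, all other zp genes are named, and 5 nearest genes are given for likeness. The members and lists were chosen with earlier results of these data known. After group means were removed, same-numbered arrays of experiment 1 correlated at 0.318, 0.202 and 0.114. All lay above 0.1, the limit set here for treating arrays as paired, and same-numbered arrays of experiment 2 did not (-0.0241). The sample titles give only replicate numbers and state no pairing. The main differences, intervals and p-values still come from the fit without pairing, and the paired fit was run as an alternative, the replicate block. With the block the adjusted p in experiment 1 was 0.0142 for the first zp3.1 probe set and 0.000428 for zpd (limma). Alternatives were median centring, Bacillus control scaling, joint quantile normalization, eBayes with trend and robust settings, probe sets above background only, a replicate block, a joint fit of all arrays and leaving out each array.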

Additional observations from a re-analysis of the deposited data

Results flagged for a closer look

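Further zp3 signal lay in 3 probe sets that the annotation assigns to several genes, so they entered no comparison above. The probe set shared by zp3e and prpf8 had 9.36, 9.34 and 9.45 in arrays labelled morphant, against 9.15, 8.999 and 9.26 in control arrays, a log2 difference of 0.2466 (adjusted p = 0.10, limma). A pair of probe sets annotated to zp3, zp3.1 and zp3.2 and also to hapstr1a and zgc:173556 had 11.35, 11.52 and 11.45 in arrays labelled morphant, against 10.89, 10.68 and 10.82 in control arrays (0.6413, adjusted p = 0.00069), and 11.59, 11.53 and 11.63 in arrays labelled morphant, against 10.97, 10.89 and 11.02 in control arrays (0.6197, adjusted p = 0.000536). In all 3 the groups did not overlap, and between 4 and 2.5 hpf they differed by -0.17, -0.24 and -0.20, none called. Which of these genes gives the signal was not tested. Groups of 2 and 3 arrays are too small for a test of single arrays that stand apart.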

How the results depend on the processing

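In experiment 1, 7 to 9 zp3 probe sets were called higher and 0 lower under every alternative run, the replicate block (paired) fit included, which called 9 and changed no zp3 call in either experiment. In experiment 2 the 4 falls became 2 under joint quantile normalization, 0 in the joint fit of all arrays and 1 to 2 with 1 array left out, and 6 under median centring or trend and robust settings; the cause was not tested. In the joint fit the number of probe sets called was 575 higher and 701 lower, and without 2.5 hpf replicate 2 it was 599 and 827. Bacillus scaling called 5631 higher and 1987 lower in experiment 1, and median centring 754 higher and 2302 lower in experiment 2. Signs turned for uncalled differences only: zp3a.2 in experiment 1 to 0.0396 (Bacillus scaling), and in experiment 2 zp3a.2 to 0.0507 and zp3d.2 to 0.0297 (joint quantile normalization, with or without the joint fit), with zp3a.2 at -0.0881 to 0.0461 as each array was left out. Of the results for single zp3 probe sets, 203 kept direction and call, 25 lost the call, 6 gained it and 6 turned sign. With the block, 1 of the other zp genes (zpax1) was called lower in experiment 1 instead of 0. Leaving out each array, chosen for the lists after seeing the data, gave in experiment 1 0 to 2 other zp genes higher and 0 to 1 lower, and in experiment 2 0 to 2 other zp genes higher, 1 to 2 egg activation genes higher and 0 to 1 lower, 2 to 5 oocyte genes higher and 7 to 9 lower, 0 to 1 liver genes higher and 0 to 1 hatching genes lower.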

Other observations

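The zp2 genes, whose proteins form the egg coat together with those of zp3, are also read by 4 probe sets that several of them share. They did not move one way. The probe set shared by zp2.3 and zp2.2 had 9.10, 9.35 and 9.11 in arrays labelled morphant, against 8.29, 8.21 and 8.42 in control arrays, a rise of 0.88 (adjusted p = 0.000118, limma). The probe set shared by zp2.1, zp2.6 and zp2.5 had 7.73, 7.54 and 7.39 in arrays labelled morphant, against 8.01, 8.10 and 8.13 in control arrays, and fell by 0.53 (adjusted p = 0.00383). The other two, each shared by 5 genes, differed by 0.11 and 0.10 (adjusted p = 0.445 and 0.491).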
